A study of Mus musculus with 10 samples.

Results

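Selenoprotein mRNAs are coding transcripts in which a UGA codon inside the reading frame is read as the amino acid selenocysteine. The 10 members studied here were Gpx1, Gpx4, Txnrd1, Txnrd2, Selenof, Selenok, Selenot, Selenow, Sephs2 and Msrb1. They were chosen by gene symbol, through the GENCODE M21 names of the listed transcripts, and all 10 were found among 15269 listed transcripts, of which 14534 were taken as coding. Ribosome footprints of CGR8, a mouse embryonic stem cell line grown without feeder cells, had been sequenced from untreated control cells and from cells kept for 10 min with 1 µM DMDA-PatA, for 10 min with 2 µg/ml harringtonine or for 20 min with 0.2 mg/ml puromycin. Each condition had 2 libraries, and a further 2 libraries held whole transcriptome reads of untreated cells. According to the methods the amount of the solvent DMSO was equal in all samples, and cycloheximide was added to all of them only after the cells had been chilled. All libraries come from a single cell line, and the methods call the replicates biological.

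At most UGA codons the ribosome releases the finished protein. In selenoprotein mRNAs a hairpin in the 3' UTR, the SECIS element, binds a protein that brings a dedicated elongation factor with selenocysteine-loaded tRNA to the ribosome, so that insertion competes with release. Most selenoproteins are enzymes of redox chemistry with selenocysteine in the active site, and their synthesis depends on the supply of selenium. DMDA-PatA is an analog of pateamine A and targets eIF4A, the RNA helicase of translation initiation. Harringtonine acts on ribosomes that have just initiated, and puromycin is an aminoacyl-tRNA mimic that releases unfinished chains.

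All 10 listed reading frames run through the recoded UGA, and the count of a reading frame therefore sums reads before and after it. The 10 frames hold 1 recoded codon each, at different places. The bases around it are shown because the results below are ordered by where this codon lies. They are written 5′ to 3′ on the mRNA strand from the GENCODE M21 transcripts on GRCm38, with the recoded codon in capitals and the most 5′ position in the reading frame first.
Sephs2: tccggcatgaagggcTGAggctgcaaggtc
Selenow: gtgtattgtggagctTGAggctataagccc
Gpx1: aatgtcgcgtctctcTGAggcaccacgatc
Selenot: cagatttgtgtatccTGAgggtaccggcgg
Gpx4: aacgtggcctcgcaaTGAggcaaaactgac
Selenof: cttgaagtctgcggaTGAaaattggggagg
Msrb1: ggacaatcaagattcTGAatatttagcagc
Selenok: ccaatggctggtggaTGAggaaggtaa
Txnrd1: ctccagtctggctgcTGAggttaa
Txnrd2: actgtgactggttgcTGAggctaa
The windows of Selenok, Txnrd1 and Txnrd2 are shorter because the true stop codon, TAA in each, closes the window. The recoded codon is followed by G in 8 members and by A in Selenof and Msrb1. In Sephs2 it is codon 63 of 452, in Selenow codon 13 of 88, in Gpx1 codon 47 of 201, in Selenot codon 49 of 195 and in Gpx4 codon 129 of 253. Selenof has it at codon 93 of 121 and Msrb1 at codon 95 of 116. In Selenok it is codon 92 of 94, and in Txnrd1 and Txnrd2 it is the last codon but 1, codon 498 of 499 and codon 523 of 524. The members thus fall into 7 with 21 to 389 sense codons after the recoded codon and 3 with 1 or 2.

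Each deposited value divided evenly by the library's value for 1 read, so read numbers could be recovered. Coding sequences carried 9104220 and 10614247 reads in the control footprint libraries and 16649611 and 38046741 in those of the transcriptome. Harringtonine libraries held 1672087 to 1944784, DMDA-PatA libraries 618334 to 748665 and puromycin libraries 872713 to 1547460. Normalized footprints are these reads scaled by the authors to an equal number of spike-in reads, so that losses common to all mRNAs remain visible. Part of the study's own supplementary values applies the spike-in factors of the DMDA-PatA and harringtonine libraries the other way round. Which assignment is right was not settled, and the deposited one was used here. All 10 embryonic stem cell markers (among them Pou5f1, Nanog and Sox2) had reads, with a sum of 4038 to 4201 RPM (reads scaled to the library's coding reads) in the control footprints and of 1333 to 1446 RPM in the transcriptome. A list of 6 fibroblast markers held 1615 to 1908 RPM in the control footprints and 6293 to 6677 in the transcriptome, the endoderm list at most 20.0, the mesoderm list at most 147 and the neural list at most 508 in any library. The authors kept only reads with a unique match on the genome. Of the 30-base windows of the Gpx4 reading frame 45.5% occur more than once on GRCm38, and of those of Selenok 78.3%, against a median of 0% over 14054 coding sequences. The values of both genes therefore rest on part of their sequence. In Gpx4 72.7% of the windows before the recoded codon occur once on the genome and 25.7% of those after it. In Selenow 63.8% of the windows after the codon occur once, and none of those before or across it is found on the genome as 1 run, as is the case for windows across exon junctions. Selenok had 1 and 4 control footprints and 5 and 4 transcriptome reads on its reading frame, too few for any test, and the counts below cover the other 9 members.

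The glutathione peroxidases reduce hydroperoxides with glutathione. Gpx1, the soluble enzyme, has its recoded codon on chromosome 9 (chr9:108339451-108339453, plus strand, exonic). Its reading frame carried 1454 and 1813 normalized footprints in the control, 326 and 769 under DMDA-PatA, 925 and 351 under harringtonine, and 1524 and 1763 under puromycin. The DMDA-PatA and harringtonine libraries lay below both controls, whereas the puromycin libraries lay within the control range. The log2 change was -1.58 ± 0.45 (SE) with DMDA-PatA (adjusted p = 0.00049 in edgeR) and -1.36 ± 0.45 with harringtonine (adjusted p = 0.00289 in edgeR). With puromycin it was 0.01 ± 0.44 (adjusted p = 0.984 in edgeR, interval -0.86 to 0.87). Gpx4, which reduces lipid hydroperoxides in membranes (chr10:80054737-80054739, plus strand), had 41.3 and 76.1 normalized footprints in the control, 17.0 and 17.9 under DMDA-PatA, 8.12 and 2.80 under harringtonine, and 16.5 and 52.2 under puromycin. Its footprints fell with DMDA-PatA (log2 change -1.76 ± 0.47, adjusted p = 0.0002 in edgeR) and with harringtonine (-3.50 ± 0.57, adjusted p = 1.33e-09 in edgeR). The puromycin libraries overlapped the controls, and the log2 change of -0.71 ± 0.47 did not pass (adjusted p = 0.142 in edgeR), but was -1.83 and passed without puromycin replicate 2 (adjusted p = 0.0177 in edgeR). These Gpx4 values rest on 35 and 84 control reads, and without control replicate 2 the DMDA-PatA change was -1.24 and did not pass (adjusted p = 0.0818 in edgeR). Without control replicate 2 the harringtonine change of Gpx1 did not pass either (log2 change -1.19, adjusted p = 0.0653 in edgeR).

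The thioredoxin reductases keep thioredoxin reduced. Txnrd1, the cytosolic enzyme (chr10:82896037-82896039, plus strand), had the highest mean inhibition by DMDA-PatA of the 9, although in replicate 2 that of Txnrd2 was higher (47.5 against 39.0 fold). It carried 3055 and 3005 normalized footprints in the control, 58.7 and 77.1 under DMDA-PatA, 212 and 112 under harringtonine, and 223 and 261 under puromycin. All 6 drug libraries were more than 10 fold below both controls. The log2 changes were -5.48 ± 0.54, -4.23 ± 0.50 and -3.64 ± 0.49, with adjusted p of 1.48e-23, 3.52e-16 and 1.05e-12 in edgeR. Txnrd2, the mitochondrial enzyme (chr16:18477772-18477774, plus strand), had 86.1 and 77.1 normalized footprints in the control, 4.42 and 1.62 under DMDA-PatA, 2.03 and 1.40 under harringtonine, and 12.4 and 11.2 under puromycin. Its footprints fell with each drug, with log2 changes of -4.64, -5.52 and -2.79 (SE 0.58, 0.66 and 0.54, adjusted p = 2.49e-15, 4.63e-16 and 6.56e-07 in edgeR). With DMDA-PatA and harringtonine this leaves 2 to 7 reads per library.

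Selenow, Selenot and Selenof belong to the small proteins with a thioredoxin-like fold, of which Selenot and Selenof reside in the endoplasmic reticulum. Selenow (chr7:15920464-15920466, minus strand) had 94.3 and 99.7 normalized footprints in the control, 15.8 and 34.9 under DMDA-PatA, 81.2 and 49.0 under harringtonine, and 57.9 and 58.4 under puromycin. It fell with DMDA-PatA (log2 change -1.95 ± 0.46, adjusted p = 2.73e-05 in edgeR). All harringtonine and puromycin libraries were below both controls, but the log2 changes of -0.59 ± 0.44 and -0.74 ± 0.46 did not pass (adjusted p = 0.188 and 0.114 in edgeR). Without harringtonine replicate 1 the Selenow change with harringtonine was -0.99 and passed (adjusted p = 0.0147 in edgeR), and its change with puromycin, still -0.74, passed without either harringtonine library (adjusted p = 0.0337 and 0.0334 in edgeR). Selenof (chr3:144590645-144590647, plus strand) fell with every drug. It had 651 and 800 normalized footprints in the control, 68.2 and 101 under DMDA-PatA, 99.4 and 84.0 under harringtonine, and 165 and 293 under puromycin. The log2 changes were -3.10 ± 0.46, -2.98 ± 0.46 and -1.65 ± 0.44 (adjusted p = 2.8e-11, 2.35e-10 and 0.000245 in edgeR).

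Selenot (chr3:58585238-58585240, plus strand) was the only member whose footprints rose with a drug in this test. It carried 488 and 107 normalized footprints in the control, 64.4 and 75.5 under DMDA-PatA, 948 and 451 under harringtonine, and 238 and 230 under puromycin. The 2 control libraries were 4.56 fold apart, which exceeded 3 fold for only 7 of 8202 coding sequences with at least 100 reads in both. The harringtonine libraries overlapped control replicate 1 and were above control replicate 2. The log2 change with harringtonine was 1.24 ± 0.43 (adjusted p = 0.00487 in edgeR), but 0.52 without control replicate 2 (adjusted p = 0.442 in edgeR) and 0.61 without harringtonine replicate 1 (adjusted p = 0.0809 in edgeR). It did not pass the DESeq2 Wald test (adjusted p = 0.131). The decrease with DMDA-PatA, -2.08 ± 0.45 (adjusted p = 4.74e-06 in edgeR), was -0.61 without control replicate 1 and then did not pass (adjusted p = 0.343 in edgeR). With puromycin the change was -0.34 ± 0.44 (adjusted p = 0.445 in edgeR).

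Msrb1 encodes a methionine sulfoxide reductase and Sephs2 the selenophosphate synthetase, which makes the selenium donor for selenocysteine itself. Msrb1 (chr17:24740158-24740160, plus strand) had 169 and 166 normalized footprints in the control, 22.1 and 46.3 under DMDA-PatA, 133 and 84.7 under harringtonine, and 78.6 and 93.3 under puromycin. Both controls were above all 6 drug libraries. The log2 change was -2.30 ± 0.45 with DMDA-PatA (adjusted p = 3.96e-07 in edgeR), -0.63 ± 0.42 with harringtonine (adjusted p = 0.146 in edgeR) and -0.95 ± 0.44 with puromycin (adjusted p = 0.0334 in edgeR). The last did not pass the DESeq2 Wald test (adjusted p = 0.05005), nor without any single control or puromycin library. Without harringtonine replicate 1 the Msrb1 change with harringtonine was -0.98 and passed (adjusted p = 0.00899 in edgeR). Sephs2 (chr7:127273731-127273733, minus strand) had 352 and 394 normalized footprints in the control, 24.0 and 50.3 under DMDA-PatA, 112 and 93.1 under harringtonine, and 143 and 193 under puromycin. It fell with each drug, with log2 changes of -3.34 ± 0.47, -1.87 ± 0.43 and -1.15 ± 0.43 (adjusted p = 1.4e-12, 2.33e-05 and 0.009 in edgeR). The puromycin change did not pass in 3 of the 8 fits that leave out a library. Selenok, a protein of the endoplasmic reticulum membrane (chr14:29973440-29973442, plus strand), was left with 0 to 2 reads in every drug library.

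**Figure D1:**
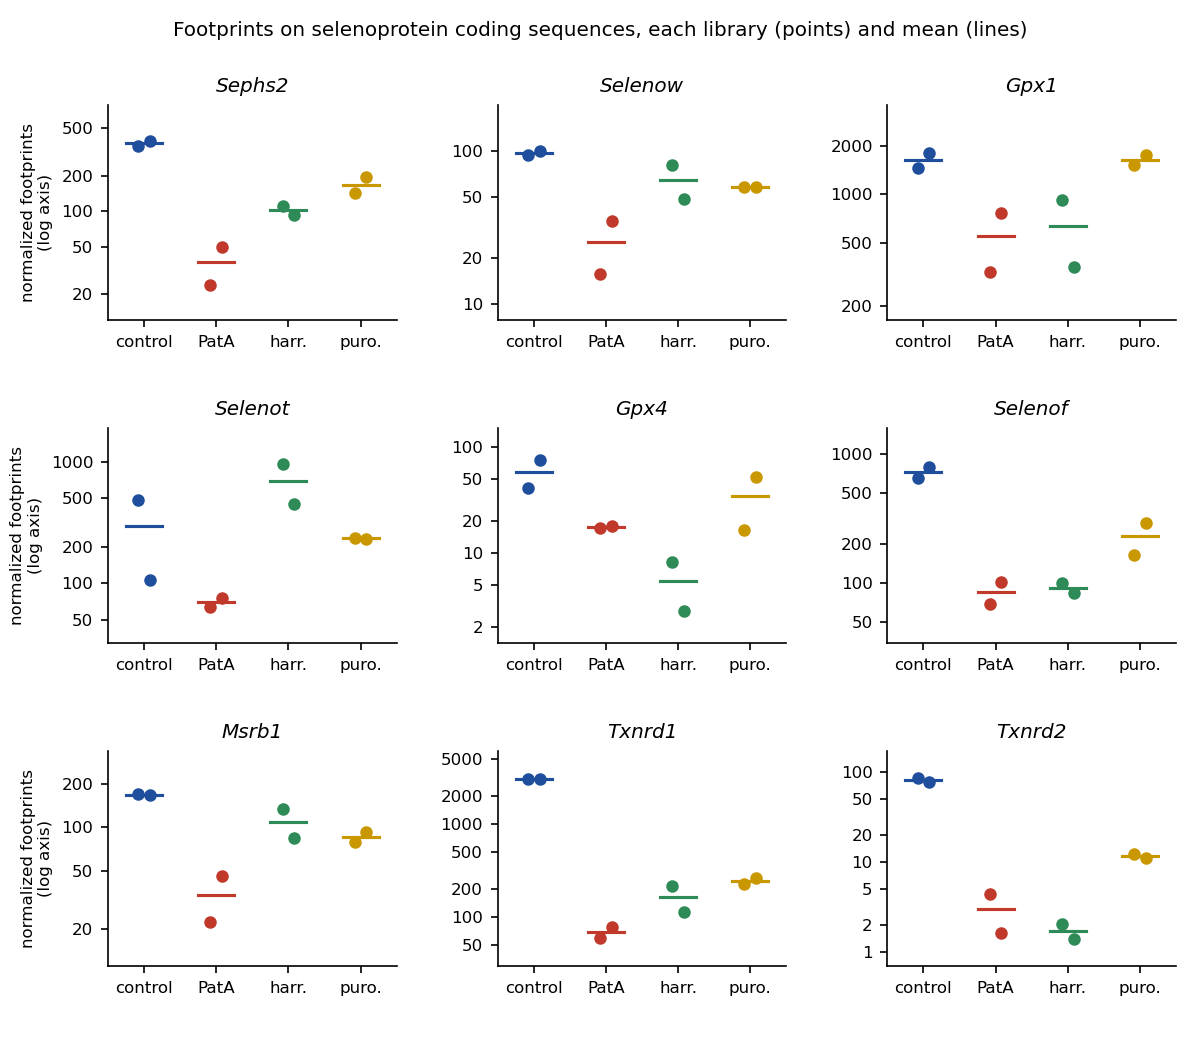
Normalized footprints on the coding sequence (vertical log axes) of the 9 tested members in control, DMDA-PatA (PatA), harringtonine (harr.) and puromycin (puro.) libraries. Points are the 2 libraries of a condition and lines their mean, and panels are ordered by the relative position of the recoded codon. The control points of Selenot are 4.56 fold apart, and those of Txnrd1 lie at 3055 and 3005.

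DMDA-PatA thus lowered 9 of 9 tested members, at a background of 99.3% of 12499 features called lower and 0.056% called higher. Harringtonine lowered 6 of 9 (background 92.9%) and raised Selenot (background 0.512%), and puromycin lowered 5 of 9 (background 90.1%) and raised none (background 0.352%). The count for puromycin ranged from 2 to 6 when single libraries were left out, with 2 calls in the absence of either control library and 3 without puromycin replicate 1. The median inhibition, the mean control value over the mean drug value, was 4.89 fold over the 9 members with DMDA-PatA (7.63 and 4.26 fold in replicates 1 and 2). It was 21.6 fold over 9888 coding sequences that had, summed over libraries, 100 or more reads in the transcriptome and in the control footprints. With harringtonine the members' median was 3.65 fold (3.16 and 5.16) against 8.37 fold, and with puromycin 1.95 fold (2.47 and 1.78) against 6.07 fold. With the factors of the DMDA-PatA and harringtonine libraries exchanged, 9, 8 and 6 members were lowered by DMDA-PatA, harringtonine and puromycin, and their median inhibition was 4.44, 4.21 and 1.95 fold. Inhibition by DMDA-PatA ranged from 2.98 fold for Gpx1 to 44.6 fold for Txnrd1. Gpx1, Gpx4 and Selenow were among the 1% of coding sequences with the least inhibition by DMDA-PatA, since 0.314%, 0.536% and 0.90% of coding sequences had less.

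As nearly every coding sequence lost footprints, the same counts were fitted relative to the bulk of features, with TMM scaling, so that 0 is the change of the typical feature. On this scale the median of all features was -0.12 for both DMDA-PatA and harringtonine, and -0.04 in the puromycin contrast. With DMDA-PatA 7 of the 9 members retained more footprints than the typical feature (background 18.8% called higher) and Txnrd1 fewer (background 23.6% called lower). The 7 were Gpx1 (log2 difference 2.56 ± 0.25), Gpx4 (2.45 ± 0.43), Selenow (2.23 ± 0.26), Selenot (2.21 ± 0.39), Msrb1 (1.88 ± 0.23), Selenof (1.11 ± 0.24) and Sephs2 (0.84 ± 0.25). The adjusted p in edgeR ranged from 1.82e-07 for Gpx1 to 0.0101 for Sephs2. Txnrd1 was at -1.25 ± 0.19 (adjusted p = 2.6e-05 in edgeR) and Txnrd2 at -0.41 ± 0.53 (adjusted p = 0.560 in edgeR, interval -1.45 to 0.62). The number called higher was 6 or 7 when single libraries were left out, and the call lost was that of Sephs2, which did not pass without control replicate 1 or without DMDA-PatA replicate 2.

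With puromycin 7 of the 9 members were called higher (background 24.3%). Gpx1 was at 2.45 ± 0.25, Selenot at 2.16 ± 0.38, Gpx4 at 1.75 ± 0.42, Selenow at 1.70 ± 0.25, Msrb1 at 1.50 ± 0.22, Sephs2 at 1.31 ± 0.22 and Selenof at 0.80 ± 0.24. Txnrd1 was again lower, at -1.19 ± 0.18 (background 24.9%, adjusted p = 1.99e-05 in edgeR), and Txnrd2 at -0.35 ± 0.44 (adjusted p = 0.533 in edgeR). Without puromycin replicate 2 the number called higher was 5, since Gpx4 (0.60, adjusted p = 0.546 in edgeR) and Selenof (0.33, adjusted p = 0.381 in edgeR) did not pass, and Selenof did not pass without control replicate 1 either (0.58, adjusted p = 0.1199 in edgeR). With harringtonine 5 members were higher (background 26.6%). These were Selenot (4.09 ± 0.38), Selenow (2.26 ± 0.22), Msrb1 (2.23 ± 0.20), Gpx1 (1.40 ± 0.24) and Sephs2 (1.03 ± 0.22), with adjusted p of at most 0.000477 in edgeR. Both thioredoxin reductases were lower (background 30%), Txnrd2 at -2.67 ± 0.59 and Txnrd1 at -1.40 ± 0.18 (adjusted p = 0.000667 and 1.55e-06 in edgeR). Gpx4 at -0.69 ± 0.59 and Selenof at -0.09 ± 0.24 did not pass (adjusted p = 0.332 and 0.771 in edgeR). The 3 drugs were compared with the same 2 control libraries, so these calls are not independent of each other, and Gpx4 and Selenof are the members for which the sign of the value differed between drugs.

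**Figure D2:**
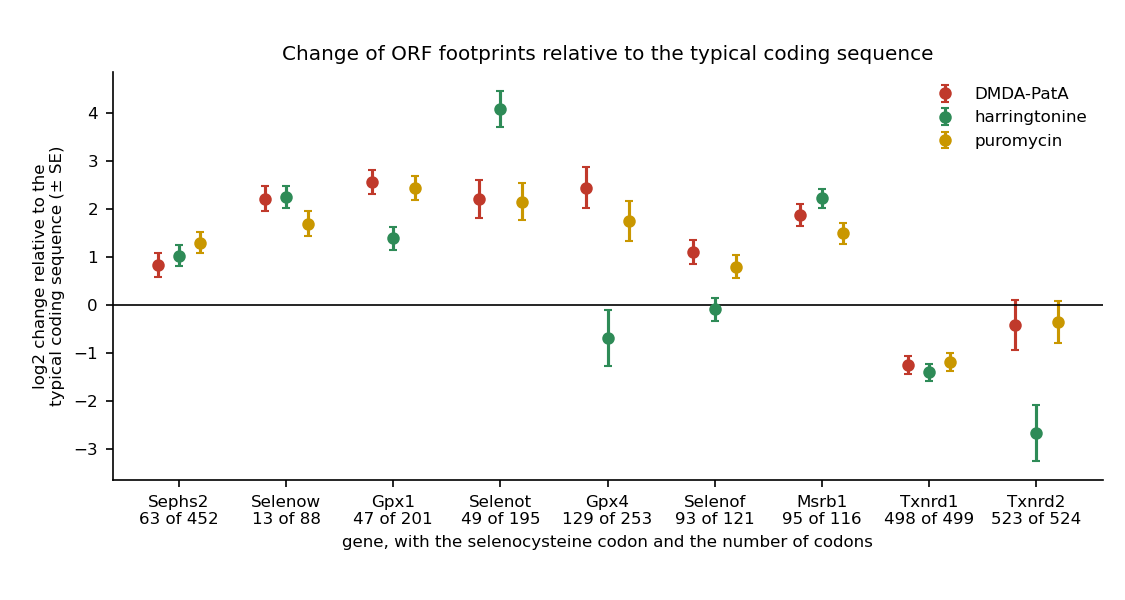
Log2 change of footprints on the coding sequence relative to the typical feature (vertical axis), with standard errors, for the 9 tested members and 3 drugs. Genes stand in the order of the relative position of the recoded codon, given under each name. The 7 members on the left lie above 0 with DMDA-PatA and puromycin, and Txnrd1 and Txnrd2 on the right lie below 0.

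Short coding sequences retained more footprints than long ones, so each member was also set beside coding sequences of 0.8 to 1.25 times its length. With DMDA-PatA Gpx4 (759 nt) was above 99.1% of its 1928 neighbours in length, Gpx1 (603 nt) above 98.9% of 1517 and Selenot (585 nt) above 97.5% of 1461. Selenow (264 nt) was above 90.2% of 347, Msrb1 (348 nt) above 84.3% of 651 and Sephs2 (1356 nt) above 84.1% of 3114. Selenof (363 nt) was above 67.2% of 704, so its place was near the middle of sequences of its length. Txnrd1 (1497 nt) was above 17.5% of 3048 and Txnrd2 (1572 nt) above 43.6% of 2993. The distance from the neighbours' median was between 0.57 for Selenof and 2.37 for Gpx4 among the 7, and -1.02 for Txnrd1 and -0.18 for Txnrd2. With DMDA-PatA 15.7% (Sephs2) to 45.2% (Selenow) of the neighbours of these 7 were themselves called higher. With harringtonine and puromycin the neighbours of the shortest members were mostly called higher, 71.8% and 81% for Selenow. With puromycin Gpx1 still exceeded 98.5% of its neighbours, Selenot 96.0%, Gpx4 95.0% and Sephs2 94.2%, while Selenow (64.8%), Msrb1 (61.4%) and Selenof (27.3%) did not stand near the top. With harringtonine the places were 99.9% for Selenot, 88.4% for Sephs2, 78.6% for Msrb1, 75.3% for Gpx1 and 75.2% for Selenow. Gpx4 was then above 18.9% of its neighbours, Selenof above 14.3%, Txnrd1 above 13.7% and Txnrd2 above 1.87%.

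The same order was looked for in the other selenoprotein genes, a list of 14 of which 12 were listed and 11 had enough footprints. The division at 10 codons after the first recoded codon was set after the values were seen, so it is a description and has no test. Of the 7 tested members and 7 other genes with more than 10 codons after it, 13 of 14 were called higher with DMDA-PatA. Over all features 18.8% were called higher than the typical feature, and among the neighbours in length of these genes 14.1% (Selenon) to 45.2% (Selenow). The 14 log2 differences ranged from 0.77 to 2.56. Among the other genes those called higher were Gpx2 (2.44 ± 0.61), Dio3 (2.08 ± 0.59), Selenom (1.88 ± 0.20), Gpx3 (1.71 ± 0.29), Selenoh (1.56 ± 0.21) and Selenon (1.21 ± 0.25). The gene not called was Selenop (0.77 ± 0.55), which has 10 recoded codons. Of the 6 tested genes with at most 10 codons after it, none was called higher and 2 were called lower (background 23.6%), Txnrd1 and Txnrd3 (-1.66 ± 0.63, adjusted p = 0.0396 in edgeR). The others were Txnrd2, Selenoi (-0.10 ± 0.21), Selenos (0.24 ± 0.32) and Selenoo (0.76 ± 0.56). When single libraries were left out, 3 to 6 of the 5 to 7 other genes tested with more than 10 codons were called higher and none of those with fewer. The 2 sets also differ in length, 264 to 1671 nt against 570 to 2001 nt. The part of length in the difference was not tested. Beside coding sequences of like length the places of the 2 sets with DMDA-PatA overlapped. With more than 10 codons they ran from above 67.2% of neighbours (Selenof) to above 99.1% (Gpx4). With at most 10 they ran from above 9.38% (Txnrd3) to above 85.4% (Selenoo). Gpx2 shares 53.2% of its 30-base windows with other places of the genome.

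**Figure D3:**
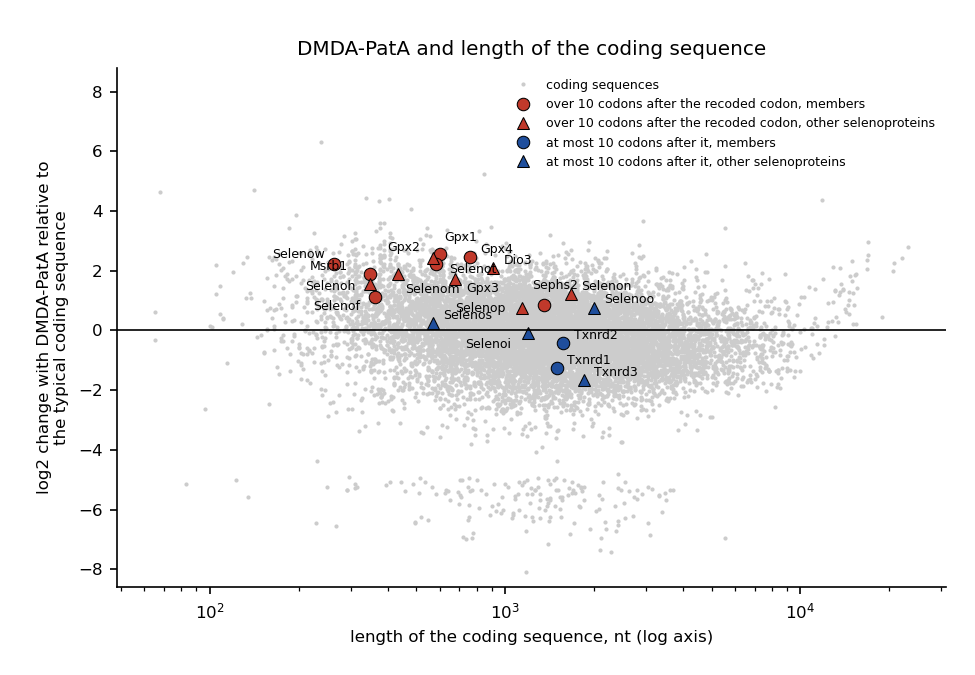
Log2 change with DMDA-PatA relative to the typical feature (vertical axis) against the length of the coding sequence in nt (horizontal log axis) for all tested coding sequences (grey) and the tested selenoprotein genes (circles are members, triangles other selenoproteins). Red symbols, with more than 10 codons after the first recoded codon, lie between 0.77 and 2.56, and blue symbols, with at most 10, between -1.66 and 0.76. Of 169 grey points under -4, 166 are coding sequences with no read in either DMDA-PatA library.

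For the other 2 drugs this division was less complete. With puromycin, at backgrounds of 24.3% higher and 24.9% lower, 10 of the 14 genes with more than 10 codons after the recoded codon were called higher and Selenon lower (-1.32 ± 0.33), and of the 6 others Selenos was higher (0.90 ± 0.27) and 2 were lower. With harringtonine these numbers were 7 higher and 1 lower of 14, against 1 higher and 4 lower of 6, at backgrounds of 26.6% higher and 30% lower. Harringtonine raised no gene of the other selenoprotein list over the control with spike-in scaling, while 11 of 11 were lowered by DMDA-PatA, 10 by harringtonine and 8 by puromycin, against 99.3%, 92.9% and 90.1% of all features.

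In untreated cells the members differed in efficiency, the ratio of footprints to transcriptome reads on the same coding sequence, given relative to the typical feature. In RPKM, reads per kilobase of coding sequence scaled to the library's coding reads, the transcriptome held a mean of 409 reads of Gpx1, 141 of Txnrd1, 140 of Selenof, 111 of Sephs2, 64.5 of Selenow, 36.2 of Msrb1, 34.1 of Selenot, 13.5 of Gpx4, 3.66 of Txnrd2 and 0.719 of Selenok, with 15.9 for the median coding sequence. Txnrd1 (147 and 134) and Selenof (118 and 161) overlapped, whereas the other neighbours in this order were separate, Msrb1 (35.0 and 37.3) and Selenot (34.6 and 33.7) narrowly. The values of Gpx4 and Selenok divide uniquely matched reads by the full length of the reading frame. As 45.5% and 78.3% of their windows occur more than once on the genome, their places in this order can be too low. Whether both are less abundant than the median coding sequence was not tested. Among the other members the windows that occur once on the genome ran from 54.0% (Selenow) to 100% (Sephs2), with a median of 82.6% over coding sequences. The part of this in the order was not tested. In the control footprints the order began with Gpx1 (269), Txnrd1 (199) and Selenof (198), and Sephs2 (27.2) stood behind Selenot (48.4), Msrb1 (47.3) and Selenow (36.3). Among these the libraries of Txnrd1 (190 and 209) and Selenof (167 and 229) overlapped, and those of Selenot (77.7 and 19.0) spanned all values from Sephs2 to Msrb1.

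Sephs2 had the lowest efficiency, with 299 and 435 footprints on 2457 and 5809 transcriptome reads. Its log2 efficiency was -1.88 ± 0.12 (adjusted p = 1.25e-08 in edgeR), and its footprints per transcriptome read were 0.250 of the median coding sequence (0.228 and 0.276 in the replicates), a ratio under which only 3.68% of coding sequences lay. Of the 1356 nt of its coding sequence 656 lie in exons of Gm44729, and the part of reads from that gene was not tested. Selenow was at -0.68 ± 0.16 with 80 and 110 footprints on 293 and 627 reads, Gpx4 at -0.64 ± 0.25 with 35 and 84 on 168 and 398, and Gpx1 at -0.46 ± 0.14 with 1233 and 2000 on 3708 and 10314 (adjusted p = 0.00167, 0.0313 and 0.00887 in edgeR). Of these, the Gpx4 value did not pass the DESeq2 Wald test (adjusted p = 0.0670 over all features). Without footprint replicate 1, or without transcriptome replicate 2, neither Gpx1 nor Gpx4 passed.

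Efficiency was higher than typical for Txnrd1 (0.65 ± 0.10, 2591 and 3315 footprints on 3667 and 7645 reads), Selenof (0.65 ± 0.16, 552 and 882 on 715 and 2220), Txnrd2 (0.62 ± 0.19, 73 and 85 on 92 and 227) and Msrb1 (0.53 ± 0.15, 143 and 183 on 203 and 494). The adjusted p in edgeR was 4.44e-05, 0.00262, 0.00884 and 0.00514, and Txnrd2 did not pass the DESeq2 Wald test (adjusted p = 0.0507). Selenot had 414 and 118 footprints on 337 and 750 reads, a log2 efficiency of 0.63 ± 0.37 that did not pass (adjusted p = 0.149 in edgeR) and turned to -0.70 without footprint replicate 1 (adjusted p = 0.00242 in edgeR). In all, 4 of 9 members were called higher and 4 lower, at backgrounds of 34% and 36.5% of 14023 features, so the members as a set did not stand apart from other features. Without transcriptome replicate 1 Txnrd1 was the only member still called higher. Members with lower efficiency had 75 to 389 codons after the recoded codon and those with higher efficiency 1 to 28, an order seen after the fact. The other selenoproteins did not follow it throughout. Selenom, with 97 codons after it, had the highest efficiency of the list (1.65 ± 0.13), and Selenoh, with 78, was called higher (0.29 ± 0.12). Selenoo, with 2, was called lower (-0.83 ± 0.20). Of the other selenoproteins with more than 10 codons after it 2 of 7 were called higher and 3 lower. Of those with at most 10, 2 of 4 were called higher and 1 lower, at the same backgrounds. The fibroblast marker sum was over 3 times higher in the transcriptome than in the footprints of the same cells, and its part in these ratios was not tested.

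**Figure D4:**
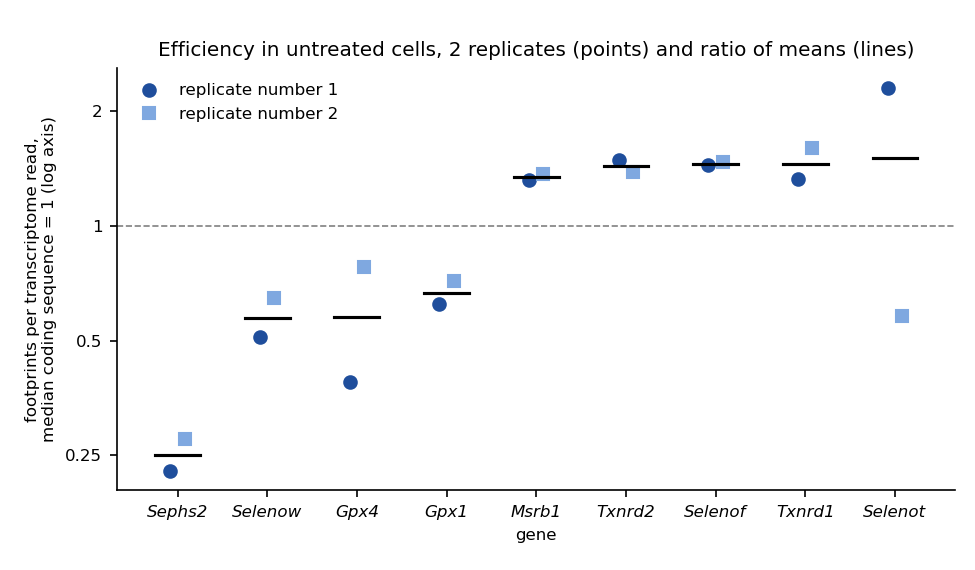
Footprints per transcriptome read of the control cells, with the median coding sequence set to 1 (vertical log axis), for the 9 tested members. Points pair libraries by replicate number and lines are the ratio of the means. Sephs2 lies at 0.250, Selenow, Gpx4 and Gpx1 between 0.573 and 0.667, Msrb1, Txnrd2, Selenof and Txnrd1 between 1.34 and 1.45, and the points of Selenot at 2.30 and 0.580.

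The 3' UTR, which holds the SECIS element, carried many transcriptome reads and few footprints. Selenof had 24 and 34 control footprints on its 3' UTR against 2219 and 5765 transcriptome reads, and Selenow 7 and 6 against 658 and 1487. Gpx1 had 7 and 3 (1504 and 3173), Txnrd1 12 and 9 (4163 and 9440), Selenot 5 and 1 (1253 and 3422) and Msrb1 4 and 1 (496 and 1186). Txnrd2 had none against 40 and 84, and Selenok none against 190 and 393. On the scale of the coding sequence efficiency, the log2 ratio on the 3' UTR was -5.45 ± 0.21 for Selenof, -5.74 ± 0.29 for Selenow, -6.73 ± 0.36 for Msrb1, -7.25 ± 0.28 for Gpx1, -7.71 ± 0.25 for Txnrd1 and -7.91 ± 0.31 for Selenot. The median of 11731 tested 3' UTRs was -7.34, and 8 of 8 tested members were called lower at a background of 99.2%. For Selenok 0 reads allow up to 3 over both libraries, a ratio at least 70.1 fold below that of the transcriptome, and for Txnrd2 at least 14.9 fold. For Gpx4 and Sephs2 the 3' UTR was listed at 0 in all 10 libraries, transcriptome included. All 30-base windows of the Gpx4 3' UTR occur more than once on the genome. Of those of the Sephs2 3' UTR in GENCODE M21 78.3% occur once. The listed positions of the Sephs2 reading frame begin at the first base and differ from those in GENCODE M21. Why its 3' UTR was listed at 0 was not tested.

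As a share of the reads on the coding sequence and 3' UTR of a transcript, the 3' UTR of Selenow held 8.05% (95% Wilson interval 3.95 to 15.7%) and 5.17% (2.39 to 10.8%) in the control footprints. Selenof held 4.17% (2.82 to 6.12%) and 3.71% (2.67 to 5.14%). These were the highest shares of any member, and both libraries of both genes had intervals above the median over coding transcripts with at least 100 reads, which was 0.214% and 0.150%. In the transcript listed for Selenof, 70 nt of the 780 nt of 3' UTR, 8.97%, are coding sequence in another isoform, and their part in the share was not tested. For Selenow no such overlap was annotated. Msrb1 held 2.72% and 0.543%, Selenot 1.19% and 0.840%, Gpx1 0.565% and 0.150% and Txnrd1 0.461% and 0.271%. In the transcriptome the shares of these 6 genes ran from 23.5% for Gpx1 to 82.0% for Selenot, with a median of 31.7% and 32.6% over coding transcripts.

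**Figure D5:**
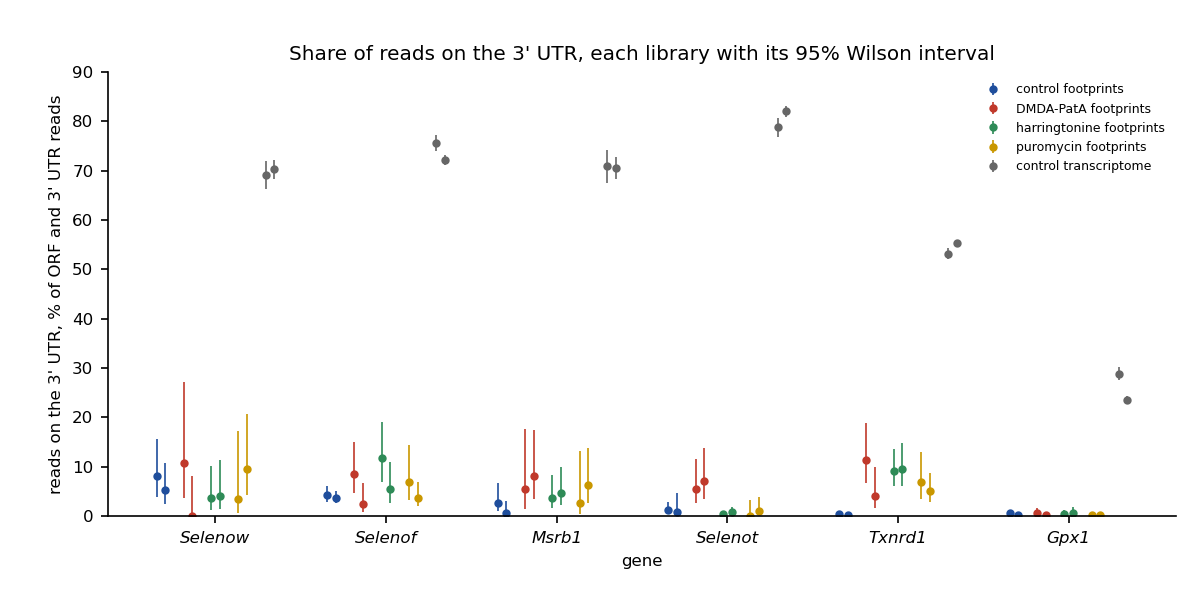
Reads on the 3' UTR as a percentage of those on the coding sequence and 3' UTR (vertical axis) for 6 members, in each of the 10 libraries, with 95% Wilson intervals that cover counting error only. Transcriptome shares lie between 23.5% and 82.0%, and control footprint shares between 0.150% and 8.05%. The Txnrd1 share is at most 0.461% in the controls and between 4.04% and 11.4% in the 6 drug libraries.

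With the drugs the Selenof 3' UTR lost footprints, as its coding sequence did. It held 10 and 3 reads with DMDA-PatA (log2 change -2.68 ± 0.66, adjusted p = 0.000256 in edgeR, background 35.1% of 1303 tested 3' UTRs called lower) and 13 and 7 with harringtonine (-1.75 ± 0.63, adjusted p = 0.0219 in edgeR, background 21.6%). The harringtonine change did not pass the DESeq2 Wald test (adjusted p = 0.0744) or without the low-count filter, nor without either control library or harringtonine replicate 2. With puromycin it held 6 and 9 reads, and the change of -1.33 ± 0.66 did not pass (adjusted p = 0.170 in edgeR). The Txnrd1 3' UTR held 12 and 4 reads under DMDA-PatA, 21 and 17 under harringtonine and 8 and 11 under puromycin, and the log2 changes of -0.97 ± 0.71, 0.57 ± 0.65 and 0.44 ± 0.70 did not pass (adjusted p = 0.329, 0.556 and 0.795 in edgeR). Of all tested 3' UTRs 8.21% were called higher with harringtonine and 1.84% with puromycin. As its coding sequence lost nearly all footprints, the 3' UTR share of Txnrd1 was 11.4% and 4.04% under DMDA-PatA, 9.13% and 9.60% under harringtonine and 6.90% and 4.98% under puromycin, over medians of 0.573% to 1.26% in these libraries. No other member had 10 reads in 2 libraries on its 3' UTR, so only 2 of the 10 were tested there.

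Genes that make and insert selenocysteine are a further list of 13, all listed and 12 tested. Relative to the typical feature 3 were higher and 4 lower with DMDA-PatA (18.8% and 23.6% of all features), and 6 had higher and 3 lower efficiency in the control (34% and 36.5% of all features). Eif4a3, a helicase known to bind some SECIS elements, had the highest efficiency (log2 1.76 ± 0.13), followed by nucleolin, Ncl (1.29 ± 0.10). Lrp8, the receptor for the selenium carrier selenoprotein P, had the lowest (-2.03 ± 0.14), and the SECIS-binding protein homolog Secisbp2l stood at -1.16 ± 0.12. With DMDA-PatA Ncl was among the genes that lost more footprints than the typical feature (-2.16 ± 0.22), and Lrp8 among those that retained more (1.01 ± 0.34). The median difference of the list with DMDA-PatA was 0.23.

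Thiol redox proteins without selenocysteine are enzymes of the same chemistry, and all 22 of that list were tested. With DMDA-PatA 3 were higher than the typical feature and 6 lower (18.8% and 23.6% of all features), with a median of -0.23, against 7 higher and 1 lower of 9 members with a median of 1.88. In efficiency 17 of the 22 were higher and none lower at the edgeR threshold, at backgrounds of 34% and 36.5%, with a median of 0.65 against 0.53 for the members. Peroxiredoxin 1, Prdx1, had the highest efficiency (2.64 ± 0.11) and glutaredoxin 3, Glrx3, the next (2.30 ± 0.14). Gpx8 (0.14 ± 0.12) and Gclc (-0.22 ± 0.12), the catalytic subunit of the first enzyme of glutathione synthesis, stood lowest. Gclc was called lower with total read scaling (-0.36, adjusted p = 0.0117 in edgeR) and without transcriptome replicate 1 (-0.37, adjusted p = 0.0298 in edgeR). Gpx8, a glutathione peroxidase homolog with cysteine in place of selenocysteine, was higher than typical with DMDA-PatA (1.37 ± 0.21) and harringtonine (1.50 ± 0.19), whereas Prdx1 (-1.51 ± 0.21) and Glrx3 (-1.54 ± 0.33) were lower with DMDA-PatA. In the other selenoprotein list 4 genes had higher and 4 lower efficiency, with Selenom and Selenoi (0.40 ± 0.15) at the top (backgrounds 34% and 36.5%) and Selenop (-1.62 ± 0.17) and Selenon (-1.73 ± 0.13) at the bottom. The Selenoi value did not pass with total read scaling (0.25, adjusted p = 0.159 in edgeR), without footprint replicate 2 (0.20, adjusted p = 0.269 in edgeR) or without transcriptome replicate 1 (0.11, adjusted p = 0.546 in edgeR).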

How the data were processed

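CGR8 footprint and transcriptome libraries were grouped by GEO's labels. Per the methods, the authors aligned SOLiD reads to mm10 (GRCm38) with LifeScope, kept unique matches of 26 to 36 nt, assigned them to combined Ensembl and other annotations and deposited signal values, that is scaled read numbers per 5' UTR, reading frame and 3' UTR. They normalized the ribosome profiling signal to equal spike-in reads and the transcriptome between replicates. The submitters' processing notes also name Picard 1.38. Whether the transcriptome matches were limited in length is not given in the sources used here. All values (100%) gave whole reads within 0.01 when divided by the library's value for 1 read, and the recovered reads were tested.

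edgeR 4.0.16 (quasi-likelihood, limma 3.58.1, R 4.3.3) was fitted over 1 reading frame per transcript kept where 2 or more libraries held 10 or more reads, Benjamini-Hochberg adjustment over all features and a threshold of 0.05. Drugs were tested on the 8 footprint libraries with the authors' size factors, and with TMM for the change relative to the typical feature. Efficiency compared 2 control footprint and 2 transcriptome libraries with TMM. Intervals given beside a log2 value span 1.96 SE. DESeq2 1.42.0, other scalings, no filter, a replicate block and leaving out each library were alternatives. The tests were checked on simulated counts. Python 3.11.15, numpy 2.4.6, pandas 2.3.3 and scipy 1.17.1 gave shares and medians. Gene names and positions are from GENCODE M21. The members and lists were chosen with earlier results of these data known. All members are named, and from each further list up to 4 genes, the 2 highest and 2 lowest in efficiency. The selenoproteins named for their position of the recoded codon were chosen after their values were seen. Whether reads were counted by strand is not given in the sources used here, so reads on the 656 nt of Sephs2 that lie in exons of Gm44729 cannot be separated. Wilson intervals and floors (3 counts) cover counting error only. The p-values rest on a spread estimated over all libraries of a fit and drawn towards that of other features. It is therefore not the spread of a gene's own 2 libraries alone. No column of per-sample values was left unmapped.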

Additional observations from a re-analysis of the deposited data

Results flagged for a closer look

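Footprints on the 5' UTR stood outside the comparisons. Members with at least 20 reads there over both libraries of a drug were Gpx1, Txnrd1, Selenok, Selenot and Selenow with DMDA-PatA. With harringtonine they were the same without Selenot, and with puromycin Gpx1, Txnrd1 and Selenow. Control reads of Selenow (12 and 2), Selenok (2 and 7) and Selenot (0 and 2) were few, so these genes entered through the drug libraries. Several of the members considered were above both control libraries in both libraries of a drug. With DMDA-PatA the mean of the normalized footprints over the control mean was 11.7 for Selenow, 9.35 for Selenot, 3.65 for Selenok and 3.04 for Gpx1. With harringtonine this ratio was 6.09 for Selenow, 2.85 for Txnrd1, 2.79 for Gpx1 and 2.56 for Selenok. Selenow had 14.1 and 1.81 normalized footprints there in the control, 71.3 and 116 with DMDA-PatA and 53.8 and 43.4 with harringtonine, while its coding sequence lost footprints with DMDA-PatA. The Selenot ratio rests on 22 reads with DMDA-PatA and 1.81 normalized footprints or fewer per control library. Members with fewer reads, such as Selenof (10 and 4 reads with DMDA-PatA, 0 and 2 in the control), were not considered. Of coding transcripts with at least 20 reads on the 5' UTR over the drug and control libraries, 23.5% (1534 of 6530) were above both controls with DMDA-PatA. The share was 54.5% (3878 of 7120) with harringtonine and 21.9% (1251 of 5705) with puromycin, for which no member was. This filter also counts control reads, so the shares are not a like background for the members. The ratios of the members were not tested.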

How the results depend on the processing

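With 2 libraries a group, the results depended most on the scaling and on single libraries. TMM in place of the spike-in left 1, 2 and 1 members lowered by DMDA-PatA, harringtonine and puromycin. Under TMM the log2 changes against control turned to 2.56 for Gpx1, 2.45 for Gpx4, 1.11 for Selenof, 2.21 for Selenot, 2.23 for Selenow, 0.84 for Sephs2, 1.88 for Msrb1 and 0.16 for the Txnrd1 3' UTR with DMDA-PatA. With harringtonine they turned to 1.40 for Gpx1, 2.26 for Selenow, 1.03 for Sephs2 and 2.23 for Msrb1, and with puromycin to 1.75 for Gpx4, 0.80 for Selenof, 2.16 for Selenot, 1.70 for Selenow, 1.31 for Sephs2 and 1.50 for Msrb1. TMM removes by construction the loss common to all features. Scaled to total reads on coding sequences, the median inhibition of the members was 0.248, 0.542 and 0.358 fold with the 3 drugs, and the efficiency of Gpx8 was -0.0085.

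When single libraries were left out, the members lowered numbered 7 to 9 with DMDA-PatA, 4 to 8 with harringtonine and 2 to 6 with puromycin. Those apart from the typical feature numbered 7 to 8, 6 to 7 and 6 to 8, and those of higher and lower efficiency 1 to 5 and 2 to 4. The median inhibition ranged from 3.94 to 7.57, 3.35 to 4.65 and 1.79 to 2.62 fold, and the members' median 3' UTR share (0.691%) from 0.407 to 0.879%. Their median efficiency ratio (1.34) was 0.778 and 1.32 when the footprint and transcriptome libraries of 1 replicate number were left out together. Log2 values that crossed 0 were those of Gpx1 (-0.14 to 0.18) and Selenot (-1.06 to 1.13) with puromycin against control, of Txnrd2 with DMDA-PatA (-1.68 to 0.34) and Selenof with harringtonine (-0.33 to 0.22) relative to the typical feature, and of Selenot (-0.70 to 1.33) and Gpx8 (-0.056 to 0.22) in efficiency. The member changed on the 3' UTR by harringtonine was 0 with DESeq2, 0 without the low-count filter and 0 to 1 without single libraries. When the spike-in factors of the DMDA-PatA and harringtonine libraries were swapped, Selenow and Msrb1 passed with harringtonine (-0.86 and -0.89) and Selenow with puromycin (-0.74). Apart from the scalings and DESeq2, the cause of these changes was not tested.

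For each condition the difference between its replicates was taken on a log scale, in the order of their numbers. Between pairs of conditions these differences had correlations of -0.02 to 0.16 over 6775 coding sequences. The highest were those of harringtonine with DMDA-PatA (0.16) and of control with DMDA-PatA (0.13). Same-numbered libraries of different conditions thus shared little of their replicate differences, and what they shared was not tested. With the replicate block the members lowered were 9, 6 and 5, and those of higher and lower efficiency 4 and 4, and none of 11 counts and 81 single values changed its call. In all, 142 of the counts and medians were classed as the same, 13 as weaker and 6 as moved. Of the single values 878 kept direction and side of the threshold. A further 27 turned to the other sign, 40 no longer passed and 12 passed only in the alternative. Low read numbers limit Selenok, Txnrd2 with drugs and the footprints on all 3' UTRs. Of the windows of the Selenok reading frame 78.3% occur more than once on the genome, and of those of the Gpx4 3' UTR 100%. The 3' UTRs of Gpx4 and Sephs2 held no read in the transcriptome either. The parts of depth and of unique matching in these low numbers were not tested.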
